A study of Mus musculus with 12 samples.

Results

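The genes described here are the inflammatory and homing chemokine receptors Cxcr3, Ccr2, Ccr1, Ccrl2, Cxcr4, Ccr9 and Ccr8, 7 of the 23937 genes in the deposited expression table, taken by their names and not by their values. RNA was sequenced from mouse CD8 T cells, the cytotoxic branch of the T cell lineage, sorted from 4 sources with 3 libraries each. The sources were brain 30 days after stroke (day 30 brain), brain 3 days after stroke (day 3 brain), brain of naive mice (naive brain) and blood of naive mice (naive blood). The labels give no strain, age or stroke model, and their treatment text names spleens where the sample labels name brain or blood. They do not say whether libraries of 1 group stem from different animals, so each p-value rests on the spread between libraries, which may be technical.

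Chemokine receptors are G protein-coupled receptors on the surface of leukocytes that read gradients of secreted chemokines, steer migration and switch integrins to their adhesive state on vessel walls. Cxcr3 binds interferon-induced chemokines such as Cxcl9 and Cxcl10 and marks effector and memory T cells, Ccr2 binds Ccl2, Ccl7 and Ccl12 and is best known from inflammatory monocytes, and Ccr1 binds Ccl3, Ccl5, Ccl6 and Ccl9 and is typical of myeloid cells. Cxcr4 binds Cxcl12 and holds cells in bone marrow and other stromal niches, Ccr9 binds Ccl25 and directs cells to thymus and small intestine and is also found on plasmacytoid dendritic cells, and Ccr8 binds Ccl1 and is found on skin-homing and regulatory T cells. Ccrl2 is an atypical receptor that presents the chemoattractant chemerin, encoded by Rarres2, to other cells.

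In the GENCODE vM21 annotation of mm10, the build the submitters' processing notes name, 5 of the 7 genes lie on chromosome 9. By RefSeq spans, Ccr9 ends 178668 bases before Ccr1 and Ccr1 ends 133225 bases before Ccr2, while Ccr8 and Ccrl2 lie megabases away. Cxcr3 (ENSMUSG00000050232.6) occupies 101731535 to 101734269 on chromosome X, Ccr2 (ENSMUSG00000049103.14) 124101950 to 124113557 on chromosome 9, Ccr1 (ENSMUSG00000025804.5) 123962124 to 123968692 on chromosome 9 and Ccrl2 (ENSMUSG00000043953.12) 111054486 to 111057519 on chromosome 9. Cxcr4 (ENSMUSG00000045382.6) occupies 128588199 to 128592293 on chromosome 1, Ccr9 (ENSMUSG00000029530.16) 123678439 to 123784330 on chromosome 9 and Ccr8 (ENSMUSG00000042262.5) 120092114 to 120094906 on chromosome 9. Ccr9 alone among the 7 overlaps other annotated genes, including AC165425.1 on the opposite strand, which shares 1932 exon bases with it, and the sources used here do not say whether reads were counted by strand, so reads of the pair cannot be separated.

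The promoter windows of the 4 receptors on which the results below turn are shown, from 250 bases before to 50 after the start site, as RefSeq gives them for GRCm38.p6. The windows are chrX:101734098-101734397 on the minus strand for Cxcr3, chr9:124101933-124102232 on the plus strand for Ccr2, chr9:111057469-111057768 on the minus strand for Ccrl2, the most upstream of its 3 windows, and chr9:123968643-123968942 on the minus strand for Ccr1. The Ccr2 window rests on a start site at 124102183 and lies within the RefSeq span of the gene, which begins at 124101918. Sequence upstream of that span was not searched. Capitals mark a match to 1 of 5 searched motifs.
Cxcr3: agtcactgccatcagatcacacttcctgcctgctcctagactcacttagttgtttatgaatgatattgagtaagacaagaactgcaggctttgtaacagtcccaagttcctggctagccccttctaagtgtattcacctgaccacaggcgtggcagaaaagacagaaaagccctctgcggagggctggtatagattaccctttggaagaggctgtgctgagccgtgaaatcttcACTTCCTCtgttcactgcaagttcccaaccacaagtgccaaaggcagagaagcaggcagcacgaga
Ccr2: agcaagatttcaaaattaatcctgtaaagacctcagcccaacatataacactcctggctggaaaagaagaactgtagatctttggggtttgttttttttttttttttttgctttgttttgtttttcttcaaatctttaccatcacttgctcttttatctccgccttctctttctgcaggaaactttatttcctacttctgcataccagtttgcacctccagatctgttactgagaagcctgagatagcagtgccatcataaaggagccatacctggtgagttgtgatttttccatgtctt
Ccrl2: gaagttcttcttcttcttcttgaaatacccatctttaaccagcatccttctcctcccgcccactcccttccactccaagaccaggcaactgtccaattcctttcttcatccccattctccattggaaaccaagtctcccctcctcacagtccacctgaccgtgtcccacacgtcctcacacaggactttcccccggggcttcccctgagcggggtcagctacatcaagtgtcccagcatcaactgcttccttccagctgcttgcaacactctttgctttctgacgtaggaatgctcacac
Ccr1: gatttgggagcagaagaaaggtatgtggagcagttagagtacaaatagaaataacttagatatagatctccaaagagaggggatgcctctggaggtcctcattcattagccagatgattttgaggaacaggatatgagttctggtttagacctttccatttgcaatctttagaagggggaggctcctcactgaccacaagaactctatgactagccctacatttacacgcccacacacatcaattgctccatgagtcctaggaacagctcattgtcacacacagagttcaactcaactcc
The motifs were searched on both strands as TGANTCA for AP-1, AGGTGTGA for T-box factors and GAGGAAGT for PU.1. The interferon-stimulated response element was searched as GAAA, any 2 bases and GAAA, and NF-kB as GGGA, any base and TTTCC. Across the 9 windows of the 7 genes a single match was found, to GAGGAAGT in the Cxcr3 window, where it reads ACTTCCTC and starts 16 bases before the start site. Of 32851 promoter windows of the same length, 3.20% held GAGGAAGT, 7.81% TGANTCA, 1.28% AGGTGTGA, 3.44% the interferon-stimulated response element and 0.411% the NF-kB motif.

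Expression is given as CPM, reads relative to a scaled library size, and differences as log2(CPM + 1) ± SE, a scale that understates the change of low genes. Libraries held 1104490 to 21014171 reads, and the floor of 3 reads that a 0 leaves possible lay between 0.298 and 1.65 CPM. Cd8a, at 52.8 to 2809 CPM, and Cd3e, at 27.8 to 2370 CPM, were present in every library. Libraries were also split by background, their reads on 1484 chemosensory receptor genes. It was low in all 3 of naive brain and in replicate 1 of day 30 and of day 3 (164 to 873 CPM without scaling factors), and high in the other 7, all 3 of naive blood included (2006 to 7813). Summed CPM of 15 T cell markers was 6133 to 22211 in day 30 brain, 665 to 5213 in day 3 brain, 10392 to 17334 in naive brain and 2909 to 5839 in naive blood. Summed CPM of 18 monocyte and macrophage markers was 2858 to 8167 in day 30 brain, 3222 to 23108 in day 3 brain, 9158 to 13081 in naive brain and 590 to 1602 in naive blood. Summed CPM of 18 microglia markers was 4275 to 21509, 3493 to 41678, 36483 to 111361 and 529 to 672 in the same order of groups, with no marker at 0. Natural killer cell markers (11 genes) summed to 1439 to 3015, 1433 to 9027, 2998 to 7270 and 206 to 657 CPM, and B cell markers (10 genes) to 80.4 to 187, 152 to 184, 105 to 287 and 91.2 to 124 CPM. CD4 and regulatory T cell markers (9 genes) summed to 238 to 356, 102 to 261, 229 to 387 and 80.0 to 123 CPM. In bulk RNA, fewer cells of a type and less RNA per cell cannot be told apart.

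**Figure D1:**
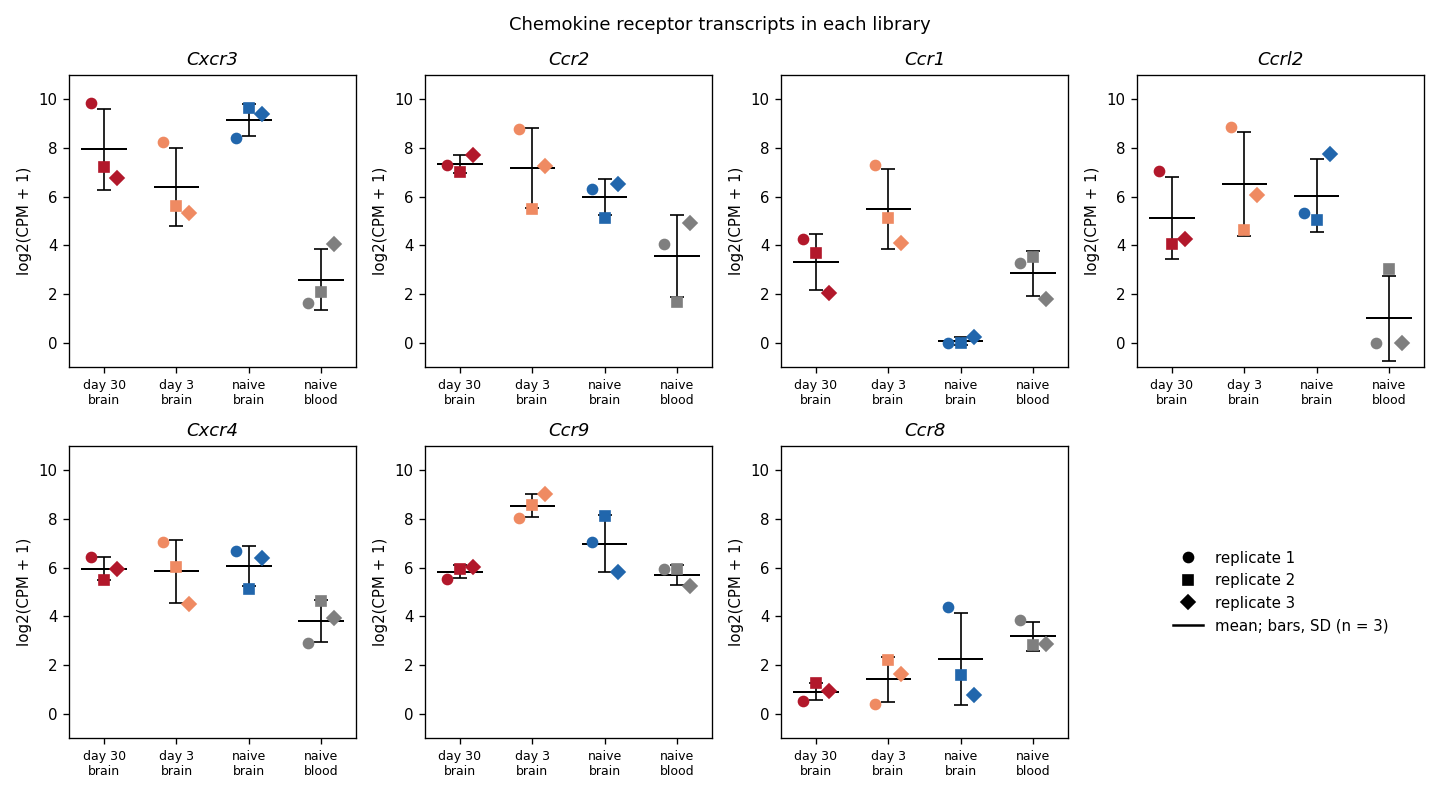
Level of each receptor as log2(CPM + 1) in the 12 libraries, in the order day 30 brain, day 3 brain, naive brain and naive blood, with symbols for replicates, the group mean and its SD (n = 3). Cxcr3, Ccr2 and Ccrl2 lay above naive blood in all 9 brain libraries, and Ccr1 was at or near 0 in naive brain only. Ccr9 had its highest mean in day 3 brain, whose libraries overlapped those of naive brain.

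The brain libraries were first compared with naive blood, the circulating cells. Cxcr3, Ccrl2 and Ccr2 were higher in brain than in blood, while over all brain Cxcr4, Ccr9, Ccr8 and Ccr1 did not pass. Over the 3 brain groups together, weighted equally, 3 of the 7 receptors were higher than in blood and 0 lower, where 3.58% of the 22352 genes tested were called higher. Ccrl2 differed by 4.89 ± 0.83, Ccr2 by 3.28 ± 0.69 and Cxcr3 by 5.23 ± 0.68 (limma, adjusted p = 3.73e-05, 0.00118 and 6.16e-08). With a term for library background the call of Cxcr3 was kept (3.67, adjusted p = 0.00232), and those of Ccrl2 (3.11, adjusted p = 0.195) and Ccr2 (2.63, adjusted p = 0.222) ended. These were also the members whose 9 brain libraries all lay above the 3 of blood, as did 1.88% of genes tested, while 0 members and 1.39% of genes tested had all 9 below. Of all genes tested 0.286% were called lower. The median difference was 2.14 over the 7 members and -0.10 over all genes tested. Microglia and macrophage markers were higher in brain as well, with 17 of 18 and 11 of 18 called and 0 lower, and their part in these results was not tested.

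Cxcr3 measured 920.5, 148 and 108 CPM in day 30 brain replicates 1 to 3, 300.2, 48.2 and 39.6 CPM in day 3 brain, 341, 799.7 and 679 CPM in naive brain, against 2.16, 3.29 and 15.5 CPM in naive blood. The lowest brain library was above the highest blood library, and replicate 1 was the highest library at each time after stroke. The difference from blood was 5.34 ± 0.83 for day 30 brain, 3.80 ± 0.83 for day 3 brain and 6.56 ± 0.83 for naive brain (limma, adjusted p = 3.02e-05, 0.00375 and 3.28e-08). Per 100 CPM of T cell markers without Ptprc, which other leukocytes express, Cxcr3 measured 2.36 to 4.58 CPM in day 30 brain, 3.39 to 11.2 CPM in day 3 brain and 3.63 to 5.62 CPM in naive brain, against 0.0522 to 0.409 CPM in naive blood. The blood libraries were therefore lowest by this ratio too. The call of day 3 brain against blood ended within high background libraries (2.88, adjusted p = 0.153), without day 3 replicate 1 (2.88, adjusted p = 0.200) and without naive blood replicate 1 (3.33, adjusted p = 0.0523). Naive brain and naive blood differ wholly in library background, so that background and tissue cannot be told apart there, and with a term for background Cxcr3 differed by 3.75 (adjusted p = 0.168).

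Ccrl2 measured 133, 15.6 and 18.1 CPM in day 30 brain, 462, 24.1 and 65.9 CPM in day 3 brain, 39.1, 31.7 and 215 CPM in naive brain, against 0, 7.13 and 0 CPM in naive blood. Day 30, day 3 and naive brain held 661, 1635 and 2562 reads, against 13 in blood, all of them in replicate 2. Ccrl2 differed from blood by 4.12 ± 1.02 in day 30 brain, 5.52 ± 1.02 in day 3 brain and 5.03 ± 1.02 in naive brain (limma, adjusted p = 0.0279, 0.000287 and 0.000537). The call at day 30 ended without day 30 replicate 1 (3.15, adjusted p = 0.346), without day 3 replicate 1 (4.12, adjusted p = 0.0521), without naive blood replicate 1 or 3 (3.61 each, adjusted p = 0.142 and 0.0952) and by DESeq2 (4.01, adjusted p = 0.216). It also ended with a background term (3.05, adjusted p = 0.257), within high background libraries (3.15, adjusted p = 0.393), with a pseudocount of 5 (2.59, adjusted p = 0.192), with no or a stricter filter (adjusted p = 0.101 and 0.0533) and in the fit to these groups alone (adjusted p = 0.110). The call at day 3 ended without day 3 replicate 1 (4.35, adjusted p = 0.0900) and within high background libraries (4.35, adjusted p = 0.0966), and that of naive brain with a background term (1.82, adjusted p = 1). The highest Ccrl2 library of day 30 and of day 3 was replicate 1 and that of naive brain was replicate 3. In each group this library had the most CPM on monocyte and macrophage, T cell and microglia markers, and the highest total CPM. The part of these markers and of the scaling in the Ccrl2 result was not tested.

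Ccr2 measured 156, 129 and 209.5 CPM in day 30 brain, 443, 44.6 and 151 CPM in day 3 brain, 78.3, 34.3 and 91.8 CPM in naive brain, against 15.7, 2.19 and 29.6 CPM in naive blood. All 3 day 30 libraries were above all 3 of naive brain, and those of day 3 and naive brain overlapped. Ccr2 was higher than in blood in day 30 brain by 3.79 ± 0.85 and in day 3 brain by 3.63 ± 0.85 (limma, adjusted p = 0.00912 and 0.00857), and in naive brain the difference of 2.44 ± 0.85 did not pass (adjusted p = 0.0609). The naive brain difference passed without day 30 replicate 1 (2.44, adjusted p = 0.0390), without day 3 replicate 2 (2.44, adjusted p = 0.0489) and without naive blood replicate 3 (3.13, adjusted p = 0.0288), and its adjusted p was 0.327 without naive blood replicate 2. Without naive blood replicate 2, the blood library lowest in Ccr2, the difference was 2.85 for day 30 brain, 2.69 for day 3 brain and 2.34 for all brain (adjusted p = 0.152, 0.168 and 0.0837). It was also lost at day 30 without day 30 replicate 3 (3.60, adjusted p = 0.0506) and by edgeR (3.37, adjusted p = 0.0553), and at day 3 without day 3 replicate 1 (2.82, adjusted p = 0.242). With a background term the difference was 3.40 at day 30 and 3.24 at day 3 (adjusted p = 0.0756 and 0.0523), and within high background libraries 3.81 and 2.82 (adjusted p = 0.0912 and 0.220), so these calls ended too. Per 100 CPM of T cell markers, Ccr2 measured 0.774 to 4.59 CPM in day 30 brain, 10.3 to 12.9 CPM in day 3 brain, 0.241 to 0.832 CPM in naive brain and 0.101 to 0.782 CPM in naive blood. By this ratio naive brain and naive blood overlapped, and the 3 day 3 libraries were above all others. The day 3 libraries were above all others by this ratio for Ccr1, Ccrl2, Ccr9 and Cxcr4 too, and not for Cxcr3 and Ccr8. The T cell markers it divides by summed to 432 to 4142 CPM in day 3 brain and 9406 to 15698 CPM in naive brain. Their part in these ratios was not tested.

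Cxcr4 measured 84.7, 44.1 and 60.1 CPM in day 30 brain, 130.0, 63.7 and 21.4 CPM in day 3 brain, 101, 33.9 and 82.6 CPM in naive brain, against 6.49, 23.6 and 14.1 CPM in naive blood. Only day 3 replicate 3 fell within the blood range. The difference from blood was 2.14 ± 0.85 in day 30 brain, 2.03 ± 0.85 in day 3 brain and 2.25 ± 0.85 in naive brain, and none passed (limma, adjusted p = 0.329, 0.419 and 0.0879). Over all brain it was 2.14 ± 0.70 (adjusted p = 0.0689), and it passed by DESeq2 with 1.86 (adjusted p = 0.0471) and without day 3 replicate 3 with 2.37 (adjusted p = 0.0469).

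Ccr8 had few reads, with 7 reads over the 3 day 30 libraries and 13 over the 3 day 3 libraries, against 77 in naive brain and 54 in naive blood. It measured 0.453, 1.38 and 0.903 CPM in day 30 brain, 0.317, 3.64 and 2.14 CPM in day 3 brain, 19.8, 2.05 and 0.695 CPM in naive brain, against 13.5, 6.03 and 6.34 CPM in naive blood. All 6 post-stroke libraries lay below the 3 of blood, and naive brain replicate 1 lay far above the other naive brain libraries. The difference from blood was -2.28 ± 1.08 in day 30 brain, -1.76 ± 1.08 in day 3 brain and -0.94 ± 1.08 in naive brain, and none passed (limma, adjusted p = 0.457, 0.769 and 0.586). The post-stroke libraries held 1 to 8 reads each.

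**Figure D2:**
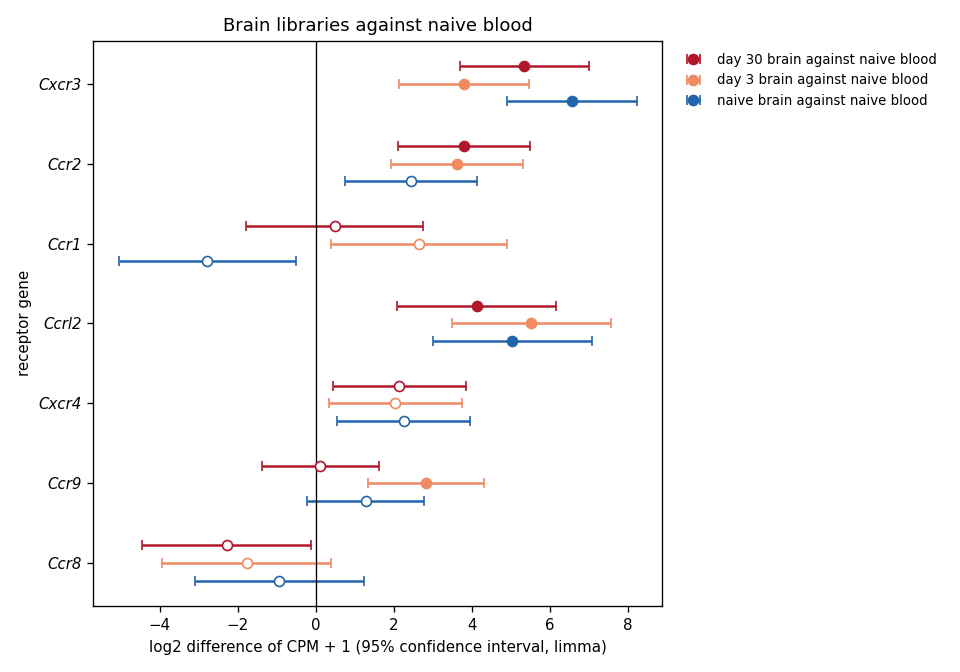
Difference of each receptor from naive blood on the log2(CPM + 1) scale with its 95% confidence interval from limma, for day 30, day 3 and naive brain. Filled circles passed an adjusted p of 0.05, namely Cxcr3 and Ccrl2 in all 3 brain groups, Ccr2 in day 30 and day 3 brain and Ccr9 in day 3 brain.

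By group, 3 of the 7 receptors were higher than in blood in day 30 brain, 4 in day 3 brain and 2 in naive brain, and 0 were lower in any of them. The share of all tested genes called higher was 0.676% in day 30 brain, 1.1% in day 3 brain and 6.61% in naive brain, and called lower 0.0358%, 0.085% and 0.975%. In either direction it was 0.711%, 1.18% and 7.59%, and 3.87% over all brain. Every library lay above blood for 4, 5 and 4 of the 7 receptors in day 30, day 3 and naive brain, against 7.35%, 7.54% and 15.6% of genes tested. Every library lay below blood for 1 receptor in each, Ccr8 in day 30 and day 3 brain and Ccr1 in naive brain, against 7.38%, 4.52% and 15.2% of genes tested. The median difference of all genes tested was -0.05, 0.03 and -0.37 in the same order. All of these comparisons share the 3 blood libraries.

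Day 3 brain was then compared with naive brain to ask what changed in the first days after stroke. Ccr1 rose, Cxcr3 was lower in every day 3 library but did not pass, and Cxcr4, Ccr2, Ccrl2, Ccr9 and Ccr8 overlapped between the groups. Of the 7 receptors 1 rose and 0 fell, where 0.152% of genes tested were called higher, 0.564% lower and 0.716% in either direction. Day 3 libraries all lay above naive brain for Ccr1 and below it for Cxcr3, as for 8.76% and 8.5% of genes tested. The median difference was 0.49 over the members and 0.50 over all genes tested.

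Ccr1 measured 158, 33.7 and 16.1 CPM in day 3 brain and 18.4, 11.9 and 3.16 CPM in day 30 brain, against 0, 0 and 0.199 CPM in naive brain. It had 604 reads at day 3 and 114 at day 30, against 2 reads among the 39368927 of naive brain, the group with the most reads. Pooled over libraries and relative to total reads, the ratio of day 3 to naive brain was 1581, with an exact 95% interval for counting error alone of 436 to 13086. At day 30 the ratio was 213, with an interval of 57.7 to 1783. The difference of day 3 from naive brain was 5.42 ± 1.13 (limma, adjusted p = 0.00672), and it was 8.26 with a pseudocount of 0.1 and 3.33 with 5, since its size rests on the value added to 0. Without day 3 replicate 2 it was 5.62 (adjusted p = 0.0553). At day 30 it was 3.25 ± 1.13 and did not pass by limma (adjusted p = 0.303) or edgeR (adjusted p = 0.0929), while DESeq2 called it (adjusted p = 0.000491).

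Against naive blood, with 8.65, 10.4 and 2.46 CPM from 42 reads, every naive brain library was lower in Ccr1. The difference of -2.77 ± 1.13 did not pass by limma (adjusted p = 0.111), but it did by edgeR (adjusted p = 0.00817) and DESeq2 (adjusted p = 5.76e-05). Monocyte and macrophage markers summed to 9158 to 13081 CPM in naive brain and 590 to 1602 CPM in naive blood. Of the 18, 17 were above 0 in every naive brain library. Neutrophil markers summed to 45.2 to 86.3 CPM in day 30 brain, 145 to 427 CPM in day 3 brain, 79.1 to 377 CPM in naive brain and 60.2 to 148 CPM in naive blood, with Camp at 0 throughout day 30 and naive brain and Il1r2 at 0 throughout naive blood. In day 3 against naive brain, Chil3 was called higher among the 18 monocyte and macrophage markers and Il1r2 among 13 neutrophil markers. Of both lists 0 were called lower, and 0.152% of all genes tested were called higher. The part of these markers in the Ccr1 result was not tested. The order of Ccr1 over the groups was thus day 3 brain, day 30 brain, naive blood and naive brain, where day 30 and day 3 brain differed by -2.17 ± 1.13 (adjusted p = 0.885) and day 30 brain and blood by 0.48 ± 1.13 (adjusted p = 0.928), and neither difference passed.

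Cxcr3 was lower in all 3 day 3 libraries than in any of naive brain, with 300.2, 48.2 and 39.6 CPM against 341, 799.7 and 679 CPM. The difference of -2.76 ± 0.83 did not pass (limma, adjusted p = 0.109). It was called without day 3 replicate 1 (-3.68, adjusted p = 0.0178) and without day 30 replicate 1 (-2.76, adjusted p = 0.0473), and with a term for library background it was -0.89. Of the T cell markers 12 of 15 were called lower as well and 0 higher, and their part in the Cxcr3 values was not tested. Cxcr3 per 100 CPM of T cell markers was 3.39 to 11.2 CPM in day 3 brain against 3.63 to 5.62 CPM in naive brain.

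Ccr9 had its highest mean CPM in day 3 brain, as did Ccr1, Ccrl2 and Ccr2. It measured 44.9, 60.1 and 64.6 CPM in day 30 brain, 264, 376 and 515 CPM in day 3 brain, 129, 278 and 54.7 CPM in naive brain, against 60.6, 60.9 and 36.6 CPM in naive blood. The 3 day 3 libraries were above all libraries of day 30 brain and blood, and naive brain replicate 2 lay within the day 3 range. Against blood, Ccr9 was higher in day 3 brain by 2.83 ± 0.75 (limma, adjusted p = 0.0328), and the difference was 3.08 within high background libraries (adjusted p = 0.00962). It missed the threshold without any 1 of day 3 replicates 2 and 3 and blood replicates 1, 2 and 3, with differences of 2.59 to 2.95 and adjusted p of 0.0619 to 0.201. Against naive brain the difference of 1.56 ± 0.75 did not pass (adjusted p = 0.376), but with unscaled CPM it was 2.53 (adjusted p = 0.00829).

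Between day 30 and day 3 brain Ccr9 differed by -2.71 ± 0.75 (limma, adjusted p = 0.107). It was among the 5.65% of genes whose day 30 libraries were all below those of day 3. The same-numbered libraries of day 30 and day 3 deviated together across genes. In both groups replicate 1 had low background and replicates 2 and 3 high background, so a pairing and the background cannot be told apart here. With the replicate number as a block in these 6 libraries alone the Ccr9 adjusted p was 0.000559 (limma), where 2.66% of genes tested were called. With the block in all 12 libraries the Ccr9 adjusted p was 0.0513 (limma), where 0.514% of genes tested were called. The difference also passed with unscaled CPM, quantile normalization, DESeq2 and a background term (-3.01, -3.21, -2.97 and -2.71, adjusted p = 0.000342, 0.0157, 0.00386 and 0.0304), and did not pass by edgeR (-2.80, adjusted p = 0.214). Within day 3 brain Ccr9 was lowest in replicate 1, the library with the most CPM on T cell, macrophage, microglia and dendritic cell markers. Dendritic cell and MHC class II markers, 14 genes, summed to 647 to 1525 CPM in day 30 brain, 3994 to 39003 CPM in day 3 brain, 4799 to 9076 CPM in naive brain and 187 to 271 CPM in naive blood, and their part in the Ccr9 result was not tested.

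**Figure D3:**
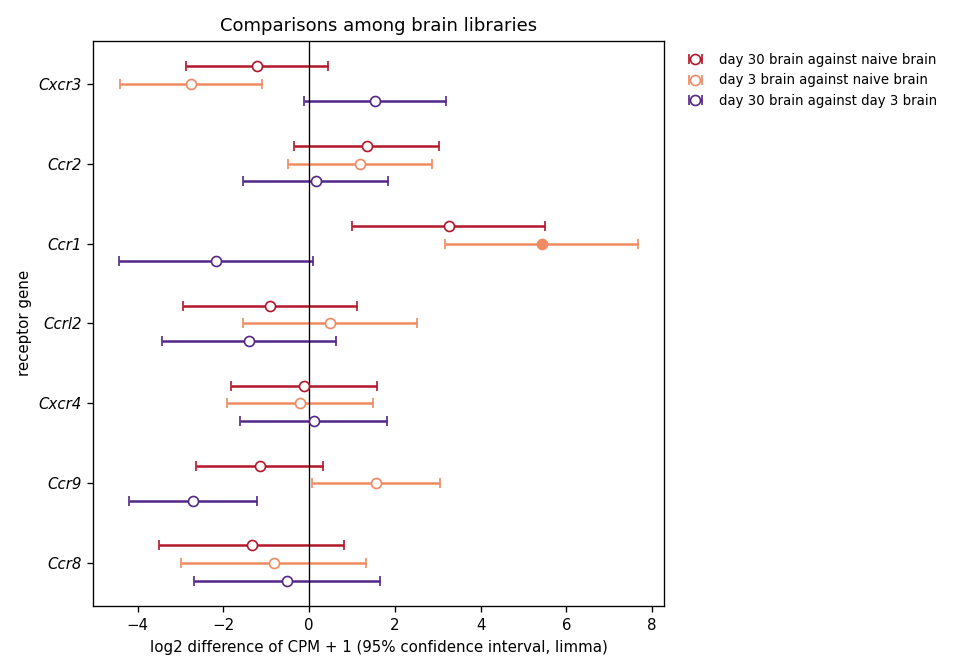
Difference of each receptor among the brain groups on the log2(CPM + 1) scale, with its 95% confidence interval from limma, for day 30 against naive brain, day 3 against naive brain and day 30 against day 3 brain. The filled circle, Ccr1 in day 3 against naive brain, is the member that passed an adjusted p of 0.05.

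Day 30 brain was also set against naive brain, to see which receptors still differed at the later time. Of the 7 receptors 0 passed by limma, where 0.224% of genes tested were called in either direction, all of them lower, and 1, Ccr1, had an unadjusted p under 0.05. By edgeR 0 passed, and by DESeq2 1, Ccr1. Day 30 libraries all lay above naive brain for Ccr1 and Ccr2, as for 7.22% of genes tested, and below it for 0 members, as for 6.03%. Ccr2 differed by 1.35 ± 0.85 (adjusted p = 0.649). Cxcr3 differed by -1.21 ± 0.83, Ccrl2 by -0.91 ± 1.02, Cxcr4 by -0.11 ± 0.85, Ccr9 by -1.15 ± 0.75 and Ccr8 by -1.34 ± 1.08 (adjusted p = 0.658 to 0.979). The 95% interval of Cxcr4, -1.82 to 1.59, shows how wide a change these 3 libraries a group leave undetected. The median was -0.91 over the members and 0.19 over all genes tested.

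Between day 30 and day 3 brain 0 of the 7 passed by limma, and 1, Ccr9, had an unadjusted p under 0.05. Of genes tested 0.255% passed by limma (0.116% higher and 0.139% lower). By edgeR 0 of the 7 and 0.157% of genes tested passed, and by DESeq2 1 of the 7 and 0.765%. Cxcr3 differed by 1.54 ± 0.83, Ccrl2 by -1.40 ± 1.02, Ccr2 by 0.16 ± 0.85, Cxcr4 by 0.10 ± 0.85 and Ccr8 by -0.52 ± 1.08 (adjusted p = 0.906 to 0.999). The median was -0.52 over the members and -0.15 over all genes tested.

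**Figure D4:**
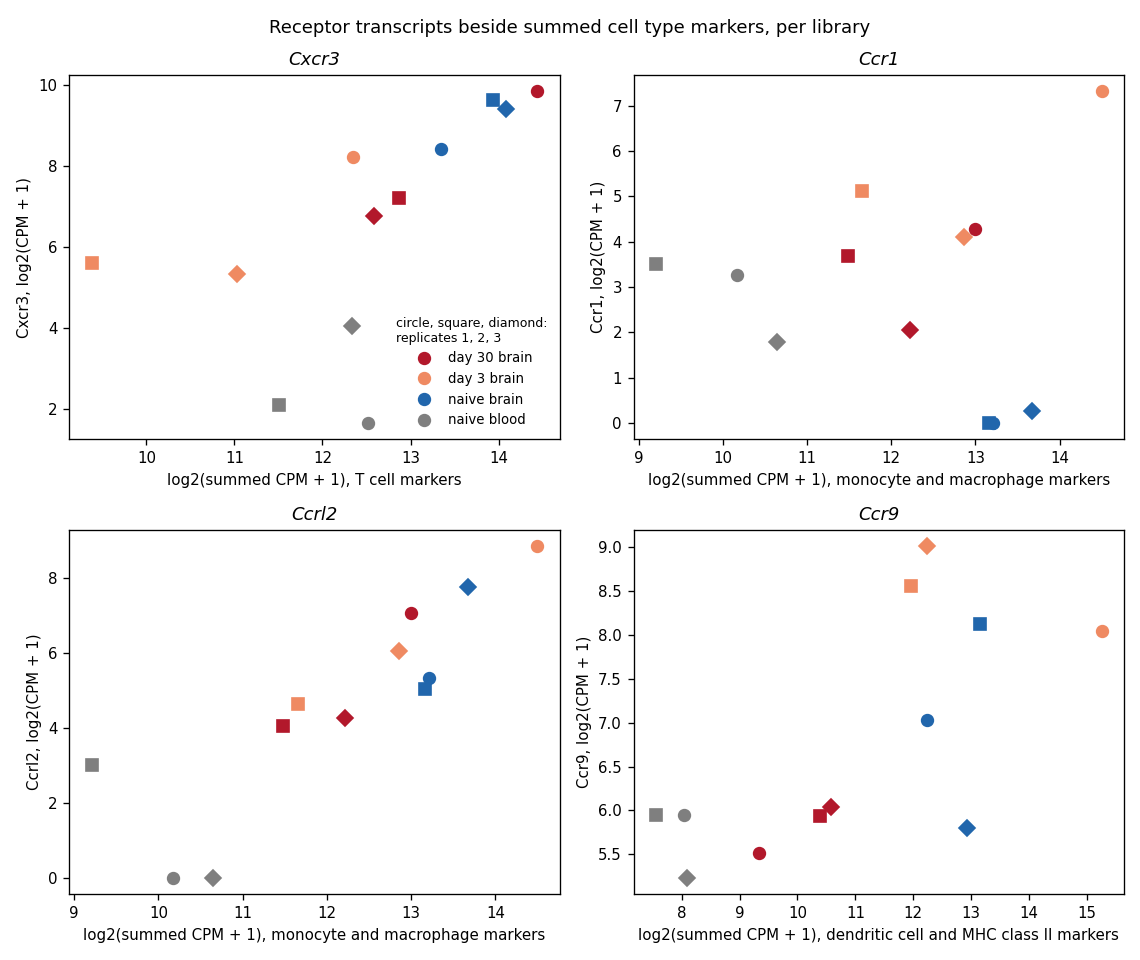
Receptor level as log2(CPM + 1) against the log2 of summed CPM of a marker list plus 1 in the 12 libraries, for Cxcr3 with T cell markers, Ccr1 and Ccrl2 with monocyte and macrophage markers and Ccr9 with dendritic cell and MHC class II markers. Cxcr3 in naive blood, at 2.16 to 15.5 CPM, lies below the brain libraries at similar T cell marker levels, and Ccr1 in naive brain lies at or near 0 where macrophage markers sum to 9158 to 13081 CPM.

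The ligands of these receptors were also measured in the sorted cells. Of 15 ligand genes, 6 were higher in all brain than in blood and 0 lower, where 3.58% and 0.286% of genes tested were. They were Ccl2, Ccl12, Ccl3, Ccl6, Ccl9 and Cxcl10. Values with a term for library background are not given here for ligands, other receptors or signalling genes. Cxcl10, a ligand of Cxcr3, measured 94.2, 135 and 30.7 CPM in day 30 brain, 334, 38.2 and 69.6 CPM in day 3 brain, 138, 0.323 and 63.0 CPM in naive brain, against 0.541, 1.65 and 3.87 CPM in naive blood (all brain against blood 4.34 ± 0.87, limma, adjusted p = 0.000612). Naive brain replicate 2 was the single brain library not above all of blood.

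Of the Ccr2 ligands, Ccl7 was the ligand that rose at day 3. It measured 868, 63.7 and 8.57 CPM in day 3 brain against 0, 0 and 10.9 CPM in naive brain replicates 1 to 3 (5.15 ± 1.23, limma, adjusted p = 0.0233), with naive brain replicate 3 above the lowest day 3 library, and in day 30 brain, at 0.227, 4.59 and 0.452 CPM, it was lower than at day 3 (-5.24 ± 1.23, adjusted p = 0.0312). Ccl2 measured 16.5, 58.3 and 75.0 CPM in day 30 brain, 2729, 76.4 and 273 CPM in day 3 brain, 12.8, 190.6 and 159 CPM in naive brain, against 3.24, 8.23 and 5.98 CPM in naive blood. It was higher than blood in day 3 brain by 5.90 ± 0.94 (adjusted p = 1.63e-05) and in naive brain by 3.53 ± 0.94 (adjusted p = 0.0105).

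Ccl5, a ligand of Ccr1 that CD8 T cells themselves make, fell at day 3, to 4094, 176 and 598 CPM against 12334, 8289 and 11847 CPM in naive brain (-3.82 ± 0.68, limma, adjusted p = 0.000992). The 15 T cell markers had a median difference of -2.96 in that comparison, and their part in the Ccl5 result was not tested. Of the 15 ligands 1 rose and 1 fell in that comparison, 0 passed between day 30 and naive brain, and 0 rose and 1 fell between day 30 and day 3 brain. The share of all genes tested called in either direction was 0.716%, 0.224% and 0.255% in the same order. Ccl25, the Ccr9 ligand, measured at most 11.4 CPM in any library, and Ccl8 was at 0 in all 3 naive brain libraries.

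Among other chemokine receptors, Cx3cr1, the fractalkine receptor typical of microglia, and Cxcr6, a receptor of tissue-resident T cells, were higher in all brain than in blood. Cx3cr1 differed by 4.86 ± 0.67 and Cxcr6 by 2.24 ± 0.64 (limma, adjusted p = 3.35e-07 and 0.0288). Cx3cr1 was lower than in naive brain in day 3 brain (-3.12 ± 0.82, adjusted p = 0.0472) and in day 30 brain (-3.72 ± 0.82, adjusted p = 0.0323). Of the 18 microglia markers 2 and 4 were called lower in these comparisons and 0 higher, and their part in the Cx3cr1 result was not tested. By group, Cxcr6 differed from blood by 3.61 in day 30, -0.48 in day 3 and 3.60 in naive brain (limma, adjusted p = 0.00657, 0.972 and 0.00131). Cxcr6 was lower in day 3 than in naive brain (-4.09 ± 0.79, adjusted p = 0.00291) and higher in day 30 than in day 3 brain (4.09 ± 0.79, adjusted p = 0.00315). T cell markers moved the same way, with 12 of 15 called lower in day 3 than in naive brain (median -2.96) and 3 of 15, Cd2, Lck and Cd3g, called higher in day 30 than in day 3 brain (median 2.47), and their part in the Cxcr6 result was not tested. Ccr7, which recruits naive T cells to lymph nodes, averaged 205 ± 317 CPM in day 30 brain, 406 ± 543 CPM in day 3 brain, 707 ± 496 CPM in naive brain and 269.8 ± 87.4 CPM in naive blood (SD, n = 3 each) and passed in no comparison.

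**Figure D5:**
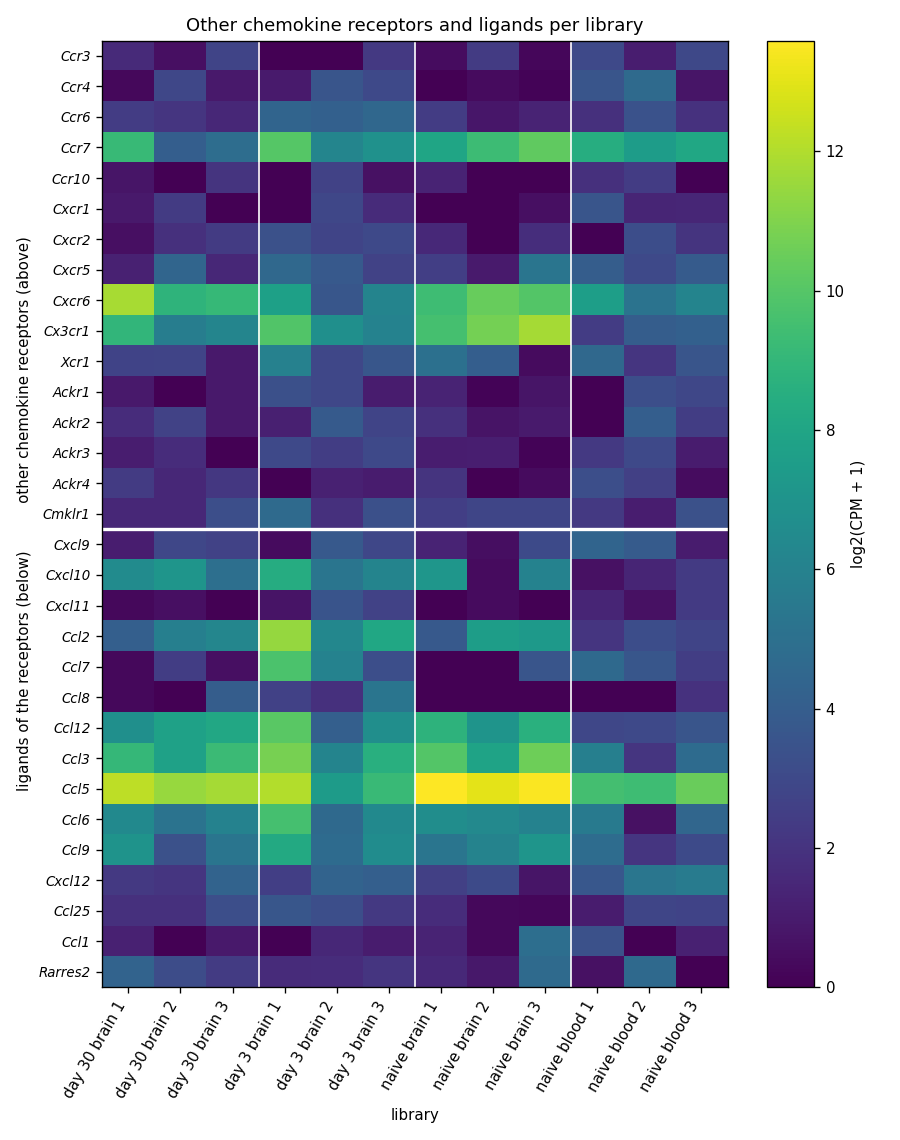
Level of other chemokine receptors (above the white line) and 15 ligands of the 7 receptors (below it) as log2(CPM + 1) in each library, ordered as day 30 brain, day 3 brain, naive brain and naive blood. Cx3cr1, Ccl3 and Ccl12 are darker, that is lower, in naive blood, and Ccl7 is bright in day 3 replicates 1 and 2.

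Of 26 genes that act downstream of chemokine receptors, 6 were higher in all brain than in blood and 0 lower, where 3.58% of genes tested were called higher. They were Gnai2, an inhibitory G protein subunit through which typical chemokine receptors signal, Rgs1, Rgs2 and Rgs19, which shorten G protein signalling, and Rac2 and Coro1a, which act on actin. Gnai2 averaged 260.5 ± 301 CPM in day 30 brain, 482 ± 333 CPM in day 3 brain, 1053 ± 339 CPM in naive brain and 47.6 ± 12.3 CPM in naive blood (all brain against blood 3.12 ± 0.59, limma, adjusted p = 0.000264). By group, 1 of the 26 was higher than in blood in day 30 brain, 2 in day 3 brain and 11 in naive brain. The share of all genes tested was 0.676%, 1.1% and 6.61%, and naive brain differs wholly from blood in library background. In day 3 against naive brain 0 rose, and Coro1a fell, with a difference of -2.78 ± 0.74 (adjusted p = 0.0477). Between day 30 and naive brain, and between day 30 and day 3 brain, 0 of the 26 passed, where 0.224% and 0.255% of genes tested did.

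Among 13208 genes with a group mean of at least 10 CPM, those with a profile most like each receptor over the 12 libraries were named by Pearson correlation, as a description of libraries that share depth, background and group. For Cxcr3 they were S100a6, Sars and Cuta (r = 0.97, 0.97 and 0.96), for Ccrl2 Znhit1, Hsp90b1 and Ctsb (0.98, 0.97 and 0.96), for Ccr2 Tmem256, Pin4 and Lilrb4 (0.95, 0.92 and 0.92) and for Cxcr4 Prickle3, Pon3 and Dhx58 (0.92, 0.91 and 0.90). For Ccr1 they were Gcnt2, Mnda and Oasl2 (0.93, 0.89 and 0.89) and for Ccr9 Klra17, Tex2 and Cd300c (0.90, 0.87 and 0.87). Between members, r was highest for Ccrl2 and Cxcr4 (0.84), Cxcr3 and Cxcr4 (0.79) and Cxcr3 and Ccrl2 (0.78), while Ccr1 correlated at -0.34 to 0.29 with each of the other 6.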

How the data were processed

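Sorted CD8 T cells gave RNA that was amplified with the SMART-Seq v4 kit, per the labels' protocols. The kit adds no molecular identifiers, so intervals and floors cover counting error only. Reads were aligned with STAR 2.5.3a to mm10 and counted with featureCounts of Subread, per the submitters' processing notes, which also name edgeR and FastQC 0.11.2. The annotation and filters are not stated there. The signal the authors deposited is gene counts relative to a scaled library size (CPM). The design had taken it for plain CPM, but column totals differ between libraries, and it was tested in the same way. Dividing by the value of 1 read gave whole reads (100% of values within 1e-06 reads), which served the count tests. limma 3.58.1 in R 4.3.3, with empirical Bayes moderation and trend, was fitted to log2(CPM + 1) of all 12 libraries and 22352 of 23937 genes, all 7 members included, that reached 1 CPM in 3 or more libraries. In each of 7 comparisons two-sided p-values received the Benjamini-Hochberg adjustment over all genes tested (threshold 0.05). The code was tested on simulated data. The members, lists and tests were chosen with earlier results of these data known, and the library background split was made on the data. All 7 members were described. Of the ligand, other receptor and signalling lists, genes that passed and up to 4 of the highest mean level were eligible for naming. Ccl25, Ccl8, Camp, Chil3, Il1r2, Cd2, Lck and Cd3g were named after their values were seen. Some genes of these lists are not reported here. Genes of like profile had a group mean of at least 10 CPM and were no predicted loci, pseudogenes or receptor segments. Of the T cell marker list 15 of 18 and of the neutrophil list 13 of 14 genes were in the table, and Adgre1, Grk2 and Grk3 were found under older names. Markers of natural killer, B and CD4 T cells were summed per library as well. Replicate numbers were taken to pair day 30 with day 3 libraries, because the correlation across genes of their deviations was 0.530, 0.284 and 0.165 for numbers 1 to 3, above the limit of 0.1. They paired no other groups. In day 30 and day 3 brain replicate 1 was low and replicates 2 and 3 were high in background, so a pairing and the background cannot be told apart there. The alternatives changed the pseudocount (0.1 or 5), dropped or tightened the filter, and tried unscaled CPM, quantile normalization, edgeR 4.0.16 and DESeq2 1.42.0 on recovered reads, fits to the compared groups alone, a replicate block, a background term, libraries of low or high background only and leaving out each library. Promoters came from RefSeq (GRCm38.p6) and positions from GENCODE vM21, with 7 of 7 members matched.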

Additional observations from a re-analysis of the deposited data

How the results depend on the processing

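Cxcr3 and Ccrl2 in naive and in all brain against blood, and Cxcr3 in day 30 brain against blood, kept their call without any 1 library. Of the values of the 13 called differences under the alternatives, 267 kept their call, 36 lost it and 0 changed sign. The number of receptors called changed by over 1.5 times as follows. In day 3 against naive brain it was 1. It rose to 2 with unscaled CPM (adding Ccr9) or the replicate block (adding Cxcr3), and it was 0 within low background libraries, where Ccr1 did not pass the filter, and 0 to 2 without 1 library. In day 30 against naive brain it was 0, and 1 by DESeq2. In day 30 against day 3 brain it was 0, and 1, Ccr9, with unscaled CPM, quantile normalization, DESeq2, the background term and the replicate block within these groups, the last added after seeing the data. Of all genes tested 1.19%, 0.613%, 0.765%, 0.626% and 2.66% were called in these settings, in that order. With the background term the number of receptors was 0 in naive brain, 1 in day 30 brain and 1 in all brain against blood. The share of genes tested called was 0.157%, 0.313% and 0.497% with this term, against 7.59%, 0.711% and 3.87% without it. Within high background libraries the number of receptors was 1 in day 3 and 1 in day 30 brain against blood, where 0.74% and 0.206% of genes tested were called. Without 1 library it was 1 to 4 in day 3 brain against blood. The replicate block ended no call and added Ccr2 in naive brain against blood. The median difference of all genes in day 3 against naive brain, 0.50, was 1.13 with unscaled CPM, 0.04 with quantile normalization and 1.03 by DESeq2. Day 3 against naive brain had 160 genes called by limma, 17 by edgeR and 975 by DESeq2. No fit within 1 background class could be made for naive or all brain against blood. The size of the Ccr1 difference rests on 2 reads in naive brain. The cause of these changes was not tested.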
